A study of Mus musculus with 8 samples.

Results

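Extracellular ATP and NAD act on lymphocytes through a small set of surface proteins, and 8 of the genes for these proteins are described here in invariant natural killer T (iNKT) cells from skin and from spleen. They are the receptor genes P2rx7, P2rx4 and P2ry10 and the enzyme genes Art2b, Cd38, Entpd1, Nt5e and Ada. The 8 genes were listed by name and chosen by their skin and spleen levels in these libraries, with no cut on a value, and all 8 of them are rows among the 22549 genes of the table. Because that difference chose them, their levels and fitted changes are given as a description, and no p is printed for them. The number that each method called is listed once, beside the share of all genes it called, and supports nothing here.

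RNA was sequenced from skin iNKT cells (4 libraries) and spleen iNKT cells (4 libraries). All 8 libraries carry the genotype CCR10+/EGFP, so 1 Ccr10 allele holds EGFP in both tissues and no wild-type mice are part of the comparison. The labels give no age, sex, strain background or treatment, and they do not say whether libraries of a tissue came from separate or pooled animals. The spread between libraries may therefore be technical in part. iNKT cells are T cells with a semi-invariant receptor for lipids presented by CD1d. Total expected counts ranged from 7221498 to 9791973 in skin libraries and from 7191131 to 9361237 in spleen libraries. Levels are in CPM, the usual depth-scaled count, with library totals scaled by TMM.

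ATP that leaves damaged or activated cells opens P2X channels such as the one encoded by P2rx7, which at high ATP can lead to shedding of surface proteins and to cell death. In mouse T cells the ADP-ribosyltransferase encoded by Art2b uses extracellular NAD to modify the P2X7 protein and open it without ATP, and iNKT cells are known to carry both. CD38 breaks down NAD, CD39 (Entpd1) removes phosphates from ATP and ADP, CD73 (Nt5e) turns the resulting AMP into adenosine, and adenosine deaminase (Ada) turns adenosine into inosine.

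The stretches before the transcription starts of the 3 genes whose skin and spleen values did not overlap are shown first, since P2rx7 and Art2b share 1 pattern and P2ry10 has the opposite one. RefSeq promoter windows (build GRCm38.p6) matched all 8 genes by symbol, with 11 windows in all, as P2rx7, P2ry10 and Entpd1 each have a second listed start. The 250 bases before the first listed start are printed 5′ to 3′ in the direction of the gene. Capitals mark matches on either strand to AP-1 (TGANTCA), the GC box (GGGCGG), RUNX (TGTGGT), the CRE core (TGACGT) or ETS (GGAAGT), and none of the marked stretches below overlap. The P2rx7 window is chr5:122643677-122643926 on the plus strand, the Art2b window is chr7:101581162-101581411 on the minus strand, and the P2ry10 window is chrX:107088242-107088491 on the plus strand.
P2rx7: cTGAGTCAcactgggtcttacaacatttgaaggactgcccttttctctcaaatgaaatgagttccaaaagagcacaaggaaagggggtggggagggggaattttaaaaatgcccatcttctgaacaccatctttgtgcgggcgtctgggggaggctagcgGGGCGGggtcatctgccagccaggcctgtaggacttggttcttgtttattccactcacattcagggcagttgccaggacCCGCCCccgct
Art2b: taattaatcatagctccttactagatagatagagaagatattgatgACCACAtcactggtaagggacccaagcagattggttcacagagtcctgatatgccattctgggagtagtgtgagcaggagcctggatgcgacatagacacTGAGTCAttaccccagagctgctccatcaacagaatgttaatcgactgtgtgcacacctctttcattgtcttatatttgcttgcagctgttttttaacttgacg
P2ry10: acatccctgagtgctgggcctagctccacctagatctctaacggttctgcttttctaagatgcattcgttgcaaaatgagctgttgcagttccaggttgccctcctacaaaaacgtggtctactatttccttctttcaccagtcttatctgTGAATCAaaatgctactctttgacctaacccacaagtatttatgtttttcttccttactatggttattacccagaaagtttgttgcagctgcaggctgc
Each of the 3 stretches holds 1 AP-1 match, which begins 249 bases before the start in P2rx7, 104 in Art2b and 99 in P2ry10. The second listed windows of P2rx7 and P2ry10 hold no AP-1 match, the second P2rx7 window (chr5:122650133-122650382, plus strand) holds none of the 5 motifs, and these counts do not show which start was used. The first P2rx7 stretch also holds 2 GC boxes, and the Art2b stretch holds 1 RUNX match. Over the 11 windows of the 8 genes, 3 held an AP-1 match, 3 a GC box, 2 a RUNX match, 2 a CRE core and 2 an ETS match. The 3 with an AP-1 match are the stretches printed above. Genes and motifs were chosen with earlier results of these data known, so nothing is read from these counts. Among all 32851 windows of the table the shares with a match were 6.75% for AP-1, 32.7% for the GC box, 14% for RUNX, 6.47% for the CRE core and 19.7% for ETS. A match to the AP-1 motif as written here, with any central letter, is present before the first listed start in genes of both patterns. It reads TGAGTCA in P2rx7 and Art2b but TGAATCA in P2ry10, and a match of letters is not a bound site. The GC content of the 3 stretches was 53.6% for P2rx7, 43.2% for Art2b and 43.2% for P2ry10.

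Among the receptors, P2rx7 was detected in spleen and not in skin. P2rx7, the ATP-gated channel described above, stood at 0 CPM in all 4 skin libraries and at 242, 317, 112 and 121 CPM in spleen replicates 1 to 4. No skin library had a count, every spleen library had at least 788 expected counts, and the highest spleen library stood 2.82-fold above the lowest. The means were 0 in skin and 198 ± 98.9 CPM in spleen (SD, n = 4 each). With a floor of 3 counts per library, averaged over skin, P2rx7 was at least 511-fold lower there, a bound on the counts that covers counting error only. Mouse T cells are known to make this receptor mainly from a splice form with its own first exon, and gene-level counts do not separate the forms.

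P2rx4, whose product is an ATP-gated channel of the same family, lies next to P2rx7 in the order of genes on chromosome 5 in GRCm38.p6. It stood at 0 CPM in all 4 skin libraries and at 0, 0, 0 and 45.9 CPM in spleen replicates 1 to 4. A count was thus present in 1 of the 8 libraries, and P2rx4 did not share the pattern of its neighbour. The gene was not tested because too few libraries had counts. Without spleen replicate 4 the 2 tissues were both at 0.

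P2ry10 was higher in skin than in spleen. P2ry10, a G protein-coupled receptor named for its likeness to nucleotide receptors and known to respond to lysophosphatidylserine, stood at 611, 299, 388 and 432 CPM in skin replicates 1 to 4. It stood at 0, 14.3, 16.4 and 7.88 CPM in spleen replicates 1 to 4. The lowest skin library was 18.2-fold above the highest spleen library, and the skin libraries lay within 2.04-fold of each other. The means were 432 ± 131 CPM in skin, against 9.65 ± 7.39 CPM in spleen (SD, n = 4 each), a 44.8-fold difference. The fitted log2 fold change, skin over spleen, was 5.48 ± 1.37 (SE).

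The neighbour of P2ry10 on the X chromosome, A630033H20Rik (now P2ry10b), did not share its pattern. It stood at 0, 88.2, 0 and 0 CPM in skin replicates 1 to 4 and at 0, 0, 60 and 3.87 CPM in spleen replicates 1 to 4. The counts overlap between the tissues, and the gene was not tested.

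Of the enzymes, Art2b had the pattern of P2rx7. Art2b, the NAD-dependent ADP-ribosyltransferase of mouse T cells, stood at 0 CPM in all 4 skin libraries and at 93.6, 156, 75.3 and 170 CPM in spleen replicates 1 to 4. Skin and spleen did not overlap, and the spleen libraries lay within 2.26-fold of each other. The means were 0 in skin and 124 ± 46.4 CPM in spleen (SD, n = 4 each), at least 320-fold lower in skin against the same floor. All 4 spleen libraries held both P2rx7 and Art2b, while spleen replicates 1 and 2 had the most P2rx7 and spleen replicates 2 and 4 the most Art2b.

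The counts of Art2b are shared with a near-identical copy, Art2a-ps (a pseudogene by its symbol, Art2a in GRCm38.p6), which lies beside it on chromosome 7. The 2 rows were estimated by dividing common reads, so the split is uncertain. Art2a-ps stood at 0 CPM in all skin libraries and at 49.5, 89.0, 33.6 and 61.8 CPM in spleen replicates 1 to 4. Art2b took 63.6% to 73.3% of the reads of the pair in the spleen libraries. The sum of both was 0 in all skin libraries and 182 ± 66.6 CPM in spleen (SD, n = 4), so the absence of counts in skin did not depend on the split.

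Cd38, the NAD-consuming ectoenzyme, was present in every spleen library and in 1 skin library. It stood at 171, 0, 0 and 0 CPM in skin replicates 1 to 4 and at 18.9, 69.2, 130 and 92.2 CPM in spleen replicates 1 to 4. The 1 skin library with counts exceeded all spleen libraries, so the tissues overlapped. The means were 42.8 ± 85.7 CPM in skin, against 77.6 ± 46.6 CPM in spleen (SD, n = 4 each), a difference smaller than the spread. The difference in mean log2(CPM + 1), skin minus spleen, was -4.15 and reached -6.00 without skin replicate 1. Bst1, the related NAD enzyme next to Cd38 on chromosome 5, had no count in any library.

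Entpd1, which encodes CD39, stood at 0 CPM in all 4 skin libraries and at 0, 0, 0 and 93.4 CPM in spleen replicates 1 to 4. A single library thus carried all of its counts, the same one as for P2rx4. Without it both tissues were at 0. That library, spleen replicate 4, had the most genes detected, and of the 11429 genes with a count in any library 6.01% had one there alone.

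Nt5e, which encodes CD73, was detected in both tissues. It stood at 93.5, 0, 297 and 574 CPM in skin replicates 1 to 4 and at 111, 115, 32.9 and 120 CPM in spleen replicates 1 to 4. The skin libraries ranged from no count to the highest level of the gene and enclosed all spleen values. The means were 241 ± 254 CPM in skin, against 94.5 ± 41.2 CPM in spleen (SD, n = 4 each), with a fitted log2 fold change of 1.35 ± 1.57 (SE). The difference in mean log2(CPM + 1) had the other sign, at -0.43, and it was 1.53 without skin replicate 2, the library at 0. Entpd1 and Nt5e, whose products act one after the other on ATP, were both above 0 in 1 library.

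Ada, the deaminase that removes adenosine, stood at 0, 97.5, 0 and 0 CPM in skin replicates 1 to 4 and at 0, 42.5, 111 and 22.1 CPM in spleen replicates 1 to 4. It was found in 1 skin library and in 3 spleen libraries, and the values overlapped. The means were 24.4 ± 48.7 CPM in skin, against 43.8 ± 47.8 CPM in spleen (SD, n = 4 each), which differed by less than the spread between libraries. The difference in mean log2(CPM + 1) was -2.54, and it was -4.19 without skin replicate 2, -3.90 without spleen replicate 1 and -1.67 without spleen replicate 3.

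**Figure D1:**
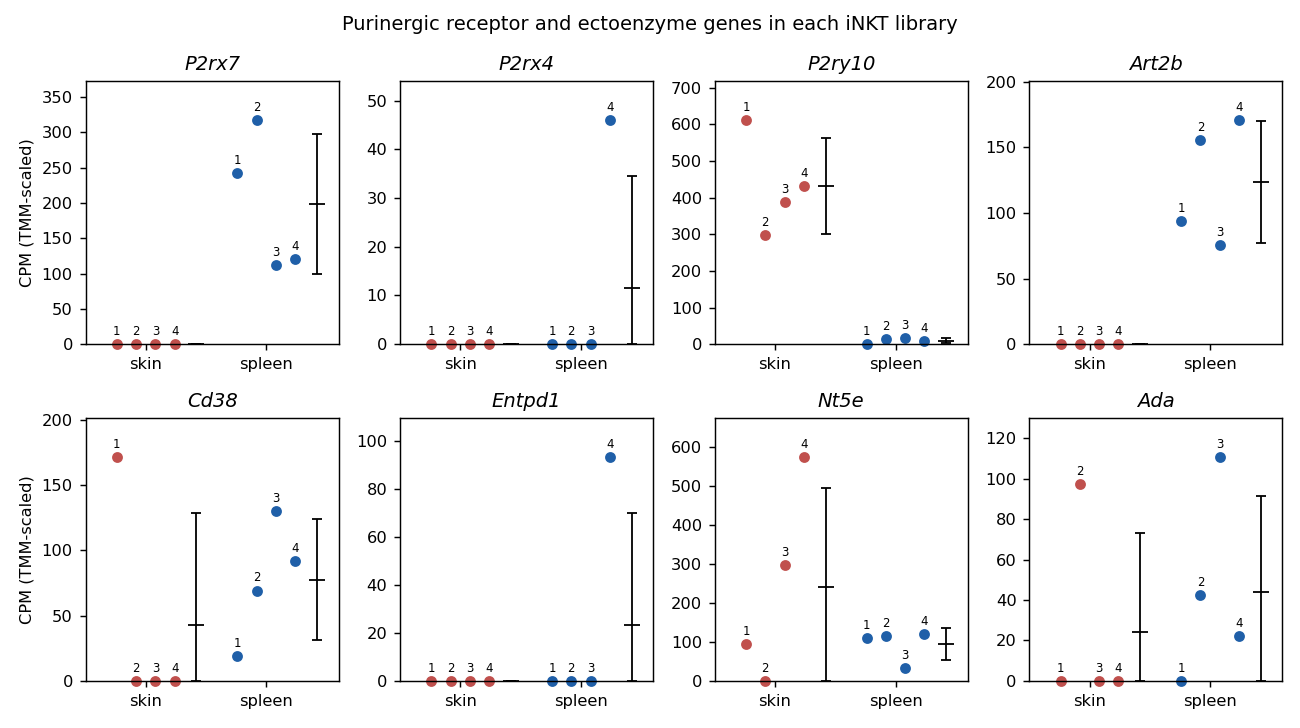
Level of each of the 8 genes in CPM (vertical axes, each starting at 0) in every skin library (red) and spleen library (blue). Points are libraries numbered by replicate, and black bars give the mean and SD of 4 libraries, with the lower end of the SD drawn no lower than 0. P2rx7 and Art2b are at 0 in all skin libraries, while P2ry10 stands at 299 CPM or more in each of them.

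Of the 8 genes, 3 thus had separate skin and spleen values, 2 lower in skin and 1 higher. Among the 6920 genes tested, the values of the tissues did not overlap for 19.5%, made up of 13.4% in the lower and 6.11% in the higher direction. Of the 8 genes 6 passed the filter on low counts, and P2rx4 and Entpd1 did not. The edgeR quasi-likelihood fit over all genes called P2rx7 and Art2b lower and none of the 6 higher, where 5.43% of the genes tested were called, 3.58% lower and 1.85% higher. At an unadjusted p under 0.05 edgeR counted 2 lower and 1 higher, where 7.33% of all genes tested were lower and 5.1% higher. DESeq2 called 2 lower and 1 higher after adjustment, with 6.46% of all genes lower and 4.26% higher. The calls by limma-voom were also 2 lower and 1 higher, with 7.23% of all genes lower and 2.99% higher. The higher gene was P2ry10. Nothing is read from these counts, since this comparison chose the genes. Leaving out any 1 spleen library ended the calls of both P2rx7 and Art2b, and Art2b kept its call only without skin replicate 4 among the 8 such fits.

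**Figure D2:**
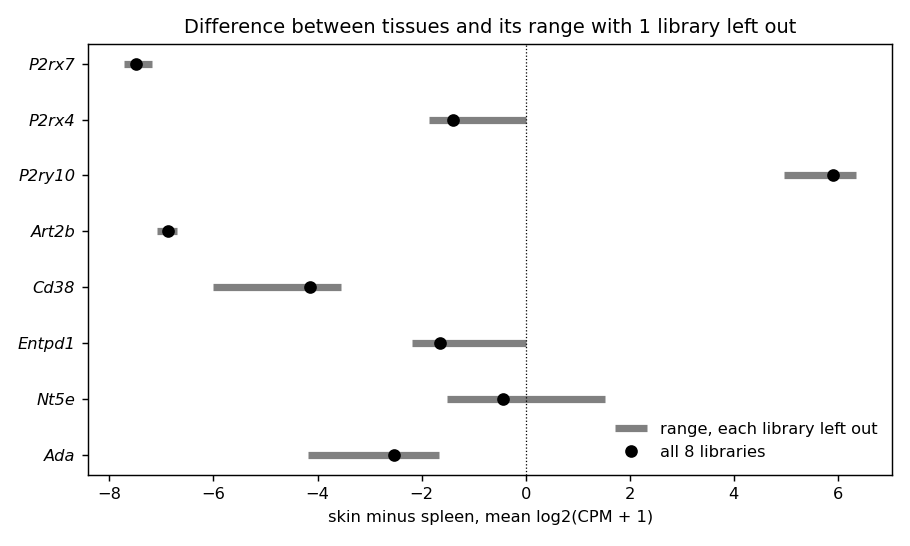
Difference between skin and spleen in mean log2(CPM + 1) (horizontal axis; left of 0 is lower in skin) for each of the 8 genes. Points use all 8 libraries, and grey bars span the values with 1 library left out at a time. P2rx7 stays between -7.71 and -7.19, Art2b between -7.08 and -6.70 and P2ry10 between 4.97 and 6.35, whereas Nt5e crosses 0.

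A zero in these libraries is not rare, and its frequency differed between the tissues. Skin libraries had a count for 5302 to 6012 genes and spleen libraries for 6415, 6897, 8690 and 10094 genes (replicates 1 to 4). Of the 8 genes, skin replicates 1 to 4 held 3, 2, 2 and 2, and spleen replicates 1 to 4 held 4, 6, 6 and 8. Both numbers were higher in every spleen library than in any skin library, while among the skin libraries the one with 3 of the 8 genes had 5304 genes in all and the others up to 6012. The part of detection in the differences was not tested. In bulk samples, fewer cells of a type and less RNA per cell cannot be told apart. P2rx7 and Art2b averaged 100 to 300 CPM in spleen. Of the 1833 tested genes in that range, 37 (2.02%) stood at 0 in all 4 skin libraries. A gene at 0 in all 4 skin libraries passed the filter only with counts in all 4 spleen libraries. Others were left out, such as 2310046O06Rik, with no count in skin and a spleen mean of 106 CPM. The share is therefore not how often a gene at that level is missing from skin. Over all genes tested, 231 (3.34%) stood at 0 in all 4 skin libraries and above 0 in all 4 spleen libraries. For Entpd1, 5 of the 2339 genes at 60 to 150 CPM in spleen replicate 4 (0.214%) stood at 0 in the other 7 libraries. For P2rx4, 33 of the 1836 genes at 30 to 60 CPM there (1.80%) did. These ranges of level were chosen after the values were seen.

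**Figure D3:**
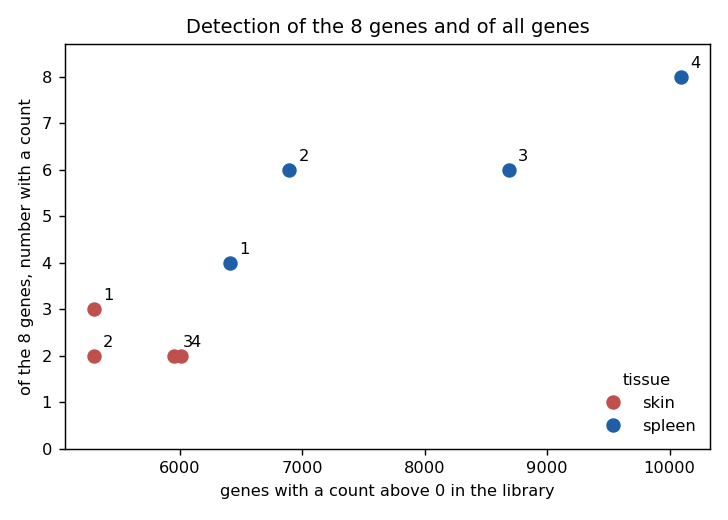
Number of the 8 genes with a count (vertical axis, from 0 to 8) against the number of all genes with a count (horizontal axis, genes) in each library, numbered by replicate, with skin in red and spleen in blue. Spleen replicate 4 lies at 8 of 8 genes and 10094 genes in all, while each skin library lies at 2 or 3 genes.

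The libraries carried transcripts of T cells, and the marker lists of all other cell types examined summed to lower levels in every library. All 10 T and iNKT cell markers were detected in both tissues, with a summed level of 4010 to 4980 CPM in skin, against 5070 to 6990 CPM in spleen (exact two-sided permutation p = 0.0286, n = 4 each, the smallest this design can give). Of these 10 genes the edgeR fit called 1. Cd3d and Cd3g were lower in skin without overlap, while the other markers of this list overlapped between the tissues. All 6 B cell markers in the table stood at 0 in every skin library, and their sum was 31.5 to 166 CPM in spleen, where 5 of 6 were detected and Pax5 was at 0 (exact two-sided permutation p = 0.0286, n = 4 each). B cell transcripts thus moved in the same direction as P2rx7 and Art2b, and their part was not tested. B cells are known to carry Cd38, Entpd1 and P2ry10. In spleen replicate 4, which held Entpd1, the B cell sum was 78.5 CPM. The part of B cells in the levels of these genes was not tested. Macrophage and dendritic cell markers, whose cells are known for P2rx7, P2rx4 and Entpd1, summed to 0 to 54.8 CPM in skin (2 of 10 detected) and 0 to 48.5 CPM in spleen (3 of 10 detected), with Csf1r, Emr1, C1qb and C1qc at 0 in both tissues. In spleen replicates 1 to 4 this sum was 0, 48.5, 40.6 and 17.7 CPM, and its part in the levels of these genes was not tested.

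Fibroblasts are a known source of Nt5e. Their 8 markers summed to 168, 18.6, 33.1 and 0 CPM in skin replicates 1 to 4 and to 0 in all spleen libraries. Sparc stood at 136 CPM in skin replicate 1 and 33.15 CPM in skin replicate 3. Dcn stood at 31.9 CPM in skin replicate 1 and Col1a1 at 18.6 CPM in skin replicate 2. Col1a2, Col3a1, Lum, Pdgfra and Mgp were at 0 throughout. The part of fibroblasts in the skin level of Nt5e was not tested. Regulatory T cells are known for Entpd1 and Nt5e, and their 5 markers summed to 129 to 894 CPM in skin, against 186 to 456 CPM in spleen. Foxp3 stood at no more than 9.54 CPM in skin, against 1.34 CPM in spleen. Ctla4 stood at 0 to 109 CPM in skin, against 0 to 10.1 CPM in spleen, and Il2ra at 0 to 51.1 CPM, against 0 to 33.2 CPM. Ikzf2 stood at 0.227 to 23.2 CPM in skin, against 0.285 to 64.0 CPM in spleen, and Tnfrsf18 at 82.2 to 737 CPM, against 122 to 382 CPM. In spleen replicate 4, the library with Entpd1, the sum of the 5 markers was 456 CPM and Foxp3 stood at 1.34 CPM. The part of regulatory T cells was not tested. Keratinocyte markers summed to 273 to 1030 CPM in skin, against 0 to 29.5 CPM in spleen (8 of 10 detected in skin, 3 in spleen; exact two-sided permutation p = 0.0286, n = 4 each). In skin replicates 1 to 4 that sum was 892, 334, 1030 and 273 CPM, and its part in the skin level of P2ry10 was not tested. Endothelial markers summed to 0 to 77.0 CPM in skin, against 0 to 57.4 CPM in spleen with 1 of 6 detected, and none of the 6 mast cell markers had a count. Neutrophil markers summed to 0.303 to 9.18 CPM in skin, against 4.56 to 30.7 CPM in spleen. Red cell markers summed to 0 to 0.424 CPM in skin, against 111 to 228 CPM in spleen (exact two-sided permutation p = 0.0286, n = 4 each), so red cell transcripts, like those of B cells, moved in the same direction as P2rx7 and Art2b, and their part was not tested. The same exact two-sided permutation test gave p = 0.0571 for neutrophil, 0.143 for fibroblast and 0.314 for regulatory T cell markers (n = 4 each). It gave larger values for endothelial and for macrophage and dendritic cell markers. These p values are not adjusted for the number of marker lists tested.

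The rest of the pathway was followed with 77 further genes listed by function, all of them in the table. Of these 29 had no count in any library, and 24 had enough counts to be tested. The edgeR test called 2 of the 24 lower in skin (8.33%, against 3.58% of all genes tested) and 0 higher, while 22 did not pass. At an unadjusted p under 0.05, edgeR counted 2 lower and 1 higher (7.33% and 5.1% of all genes). DESeq2 called 2 lower and 1 higher (6.46% and 4.26% of all genes), and limma-voom called 2 lower and 0 higher (7.23% and 2.99% of all genes). The median fitted log2 fold change of the 24 was -0.24, beside -0.29 over all genes tested, with 11 above 0 and 13 below. The 2 called genes were Entpd4 and Art2a-ps. Both stood at 0 in all skin libraries and passed the filter only through their spleen counts. Art2a-ps shares its reads with Art2b as described, so its call is not separate from the values that chose the 8 genes. The share of 8.33% includes it, and nothing is read from that share. Without any 1 of the spleen libraries neither was called, and Art2a-ps was called in none of the 8 fits that left out a library.

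Among ligand receptors, none of the 5 other P2X channel genes had a count in any library. Of 10 P2Y and related lipid receptor genes, 4 had no count and only Gpr34 was tested. Gpr34, a receptor for lysophosphatidylserine like P2ry10, stood at 336, 0, 12.4 and 0 CPM in skin replicates 1 to 4 and at 59.8, 0, 36.6 and 20.2 CPM in spleen replicates 1 to 4, and it was not called. Gpr174, another receptor for that lipid, stood at 0 in all skin libraries and at 0.877, 118, 26.4 and 57.4 CPM in spleen replicates 1 to 4. Its values did not overlap, but it did not pass the filter and was not tested. Of the 4 adenosine receptor genes only Adora2a, the main receptor through which adenosine restrains T cells, had a count. Adora2a stood at 0 in all skin libraries and at 23.0, 0.114, 20.2 and 18.1 CPM in spleen replicates 1 to 4, and it too was not tested.

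Of 15 nucleotide phosphatase and phosphodiesterase genes, 11 were detected and 3 tested, of which Entpd4 fell and 2 did not pass. Entpd4, an intracellular relative of CD39 in the Golgi and lysosomal membranes, stood at 0 CPM in all skin libraries and at 175, 165, 169 and 74.2 CPM in spleen replicates 1 to 4. Skin and spleen did not overlap, and the means were 0 in skin and 146 ± 47.9 CPM in spleen (SD, n = 4 each; edgeR adjusted p = 0.0352). With no count in skin, Entpd4 passed the filter only through its spleen counts. It could thus be called only lower, and nothing is read from that p. With the floor of 3 counts per library, skin Entpd4 was lower by at least 377-fold. Entpd5, a soluble or endoplasmic reticulum enzyme of the family, stood at 0 in all skin libraries and at 131, 0, 94.3 and 92.0 CPM in spleen replicates 1 to 4, and was not tested. Entpd6 stood at 66.0 ± 90.4 CPM in skin, against 53.1 ± 40.2 CPM in spleen and the phosphatase gene Acpp at 24.9 ± 33.6 CPM in skin, against 14.4 ± 20.2 CPM in spleen (SD, n = 4 each), neither of them called.

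Of 9 further genes of NAD metabolism and ADP-ribosylation, 3 were tested. Art2a-ps stood at 0 CPM in skin, against 58.5 ± 23.4 CPM in spleen (SD, n = 4 each), at least 151-fold lower. As for Art2b, with which it shares reads, no p is printed for it. Nampt, the enzyme that limits NAD salvage, stood at 45.3 ± 43.2 CPM in skin, against 53.4 ± 33.7 CPM in spleen (edgeR adjusted p = 0.998). Adprh, which removes ADP-ribose from arginine, stood at 67.0 ± 53.1 CPM in skin, against 152 ± 29.3 CPM in spleen (edgeR adjusted p = 0.998), and skin replicate 3 was at 0.

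None of the 12 tested genes of nucleoside transport and salvage passed, with 5 log2 fold changes above 0 and 7 below. The nucleoside carrier gene Slc29a1 stood at 155 ± 149 CPM in skin, against 103 ± 23.9 CPM in spleen. Dpp4, which encodes CD26 and anchors adenosine deaminase on human T cells, stood at 0, 111, 46.0 and 107 CPM in skin replicates 1 to 4 and at 152, 528, 366 and 174 CPM in spleen replicates 1 to 4. Its values did not overlap, yet the fit did not call it (log2 fold change -2.21 ± 1.41, SE; edgeR adjusted p = 0.751). Ahcy, the hydrolase that yields adenosine in the methyl cycle, stood at 182 ± 200 CPM in skin, against 81.9 ± 80.3 CPM in spleen and was not called.

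None of the 5 tested genes of ATP release and P2X7 effects passed. Panx1, which forms the pannexin channel that lets ATP out of cells, stood at 156, 377, 287 and 118 CPM in skin replicates 1 to 4 and at 222, 48.3, 132 and 110 CPM in spleen replicates 1 to 4, with overlap. Pycard, the inflammasome adaptor ASC, stood at 22.7 ± 39.7 CPM in skin, against 304 ± 65.2 CPM in spleen. Its values did not overlap and it was not called (log2 fold change -3.75 ± 1.99, SE; edgeR adjusted p = 0.587). Anxa5, a phosphatidylserine-binding annexin, stood at 299, 505, 414 and 145 CPM in skin replicates 1 to 4 and at 95.8, 56.5, 125 and 72.4 CPM in spleen replicates 1 to 4. All skin libraries exceeded all spleen libraries, and the fitted change was 1.96 ± 0.51 on the log2 scale (SE; edgeR adjusted p = 0.0593, not called). It was the 1 gene that DESeq2 called higher. Of the 24 tested genes, 5 were lower without overlap (Entpd4, Art2a-ps, Pycard, Dpp4 and Nt5c) and 1 was higher (Anxa5). Over all genes tested, 13.4% were lower and 6.11% higher without overlap. Nothing is read from this count, which includes Art2a-ps with its reads shared with Art2b. Nt5c, a cytosolic nucleotidase gene named here after its values were seen, stood at 61.2 ± 23.4 CPM in skin, against 157 ± 20.4 CPM in spleen (SD, n = 4 each; edgeR adjusted p = 0.633).

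**Figure D4:**
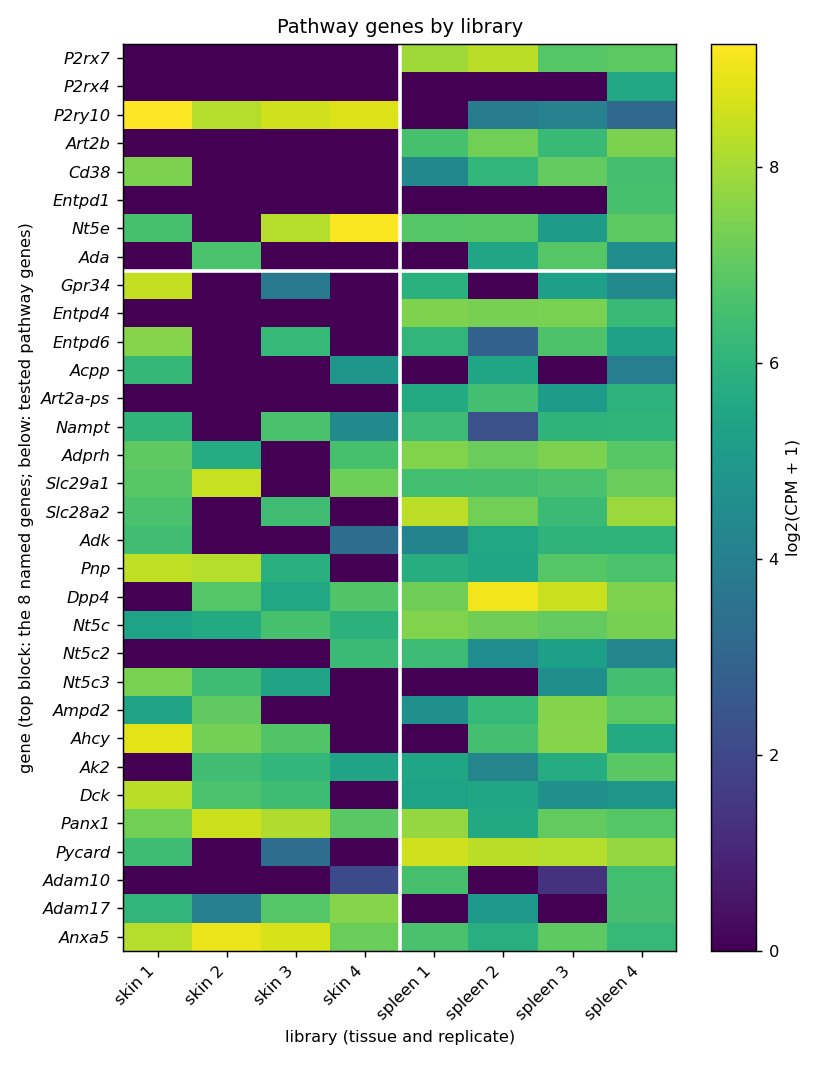
Level of the 8 genes (upper block) and the 24 tested pathway genes (lower block), as log2(CPM + 1) by color, in the 4 skin libraries (left of the white line) and the 4 spleen libraries (right of it). Dark cells are zeros: P2rx7, Art2b, Entpd4 and Art2a-ps are dark in all skin libraries, and P2ry10 is bright in all of them.

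The genes with patterns most like those of the 8 were found by the root mean square difference of mean-centred log2(CPM + 1) over the 8 libraries, taking the 2 nearest named genes for each of the 6 tested. Nearest to P2rx7 were the interferon-induced gene Ifit3 (difference 0.31) and the Schlafen family gene Slfn8 (0.37), both with no count in skin and at 221 and 161 CPM in spleen on average. Nearest to Art2b were the transcription factor genes Klf3 (0.31) and Lef1 (0.32), with 0 and 0.138 CPM in skin and 180 and 118 CPM in spleen on average. P2rx7 and Art2b differed from each other by 0.58, and every other pair among the 6 by at least 2.76. Shared zeros in all 4 skin libraries keep such a difference small. Of the genes tested, 231 stood at 0 in all 4 skin libraries and above 0 in all 4 spleen libraries. The differences come from the same values that chose the 8 genes, and nothing is read from them. Nearest to P2ry10 were the transferrin gene Trf (0.78), at 765 CPM in skin, against 24.4 CPM in spleen, and the phosphatase gene Ptp4a1 (1.01), at 177 CPM in skin, against 3.01 CPM in spleen. For Cd38, Nt5e and Ada the nearest genes shared the same libraries at 0: Mrps18a (0.30) and Trmt2b (0.50) for Cd38, Wdr45l (0.58) and Ppp6c (0.67) for Nt5e, and Gbas (0.56) and Vps37c (0.58) for Ada.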

How the data were processed

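RNA from skin and spleen iNKT cells was made into cDNA with SMART-Seq v4, an ultra-low-input kit, and sequenced as paired 75 bp reads on a NextSeq 500, per the labels' protocols. The authors deposited expected counts per gene, not scaled for library size. The submitters' processing notes name RSEM, FastQC, DESeq2 1.16.1 and mm9, without role or order. For the aligner, annotation and filters the sources used here give nothing. Reads carry no molecular identifiers, the kit does not mark strand, and reads of near-identical or overlapping genes cannot be told apart with certainty.

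Columns were matched to libraries by the labels' descriptions, and 0 sample columns were left unused. Expected counts were rounded. Genes passing filterByExpr (6920) were fitted with edgeR 4.0.16 (TMM, robust glmQLFit, glmQLFTest, tissue as the only term) in R 4.3.3 and adjusted by Benjamini-Hochberg at 0.05. With a fitted common dispersion of 2.94, a missed threshold does not show equal levels. SEs are the log2 fold change over the square root of F. Alternatives were RLE and upper-quartile scaling, no filter, 5 CPM in 4 libraries, rounding down, DESeq2 1.42.0, limma-voom (limma 3.58.1), the replicate number as a block, each library left out, pseudocounts of 0.5 and 5 CPM instead of 1, and Art2b summed with Art2a-ps. Floors of 3 counts equal 0.292 to 0.454 CPM and cover counting error only. No 2 libraries of a tissue agreed within sampling noise (smallest chi-square per degree of freedom 112).

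The members, gene lists and motifs were chosen with earlier results of these data known. Named were the 8 members, in each list the called genes (up to 3 a direction by adjusted p) and the 3 most abundant uncalled genes, 2 genes nearest in pattern to each tested member (clone, predicted and small RNA names left out), and neighbours in GRCm38.p6. Promoters are RefSeq's in that build; the counts have no coordinates.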

Additional observations from a re-analysis of the deposited data

Results flagged for a closer look

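Single libraries stood apart for 5 of the 8 genes. In each case the gap between the highest or lowest of 4 libraries and the nearest other one exceeded Dixon's 95% critical value as a share of the range of the tissue. For normally spread values chance gives this in about 1 of 20 groups. These data are not of that kind: 3 libraries at 0 pass by construction, as for 4 of the 5 genes, and over all genes tested 2189 of 13595 groups with unequal values (16.1%) passed. Cd38 stood at 171 CPM in skin replicate 1 and Ada at 97.5 CPM in skin replicate 2, each with the other 3 skin libraries at 0. P2rx4 at 45.9 CPM and Entpd1 at 93.4 CPM were present in spleen replicate 4 and at 0 in the other 3 spleen libraries. Nt5e stood at 32.9 CPM in spleen replicate 3, against 111 to 120 CPM in the other spleen libraries.

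Of the further pathway genes, A630033H20Rik stood at 88.2 CPM in skin replicate 2 with the other skin libraries at 0, and at 60 CPM in spleen replicate 3 with the others at no more than 3.87 CPM. Gpr34 stood at 336 CPM and Pycard at 81.9 CPM in skin replicate 1, where the other skin libraries had at most 12.4 and 8.85 CPM. Entpd4 stood at 74.2 CPM in spleen replicate 4, against 165 to 175 CPM in the other spleen libraries. In all, 10 of 41 groups of 4 libraries with unequal values were set apart in this way, 5 of them because the other 3 libraries had no count.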

How the results depend on the processing

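Of all genes, 128 were called higher and 248 lower in skin. The counts were 295 and 447 with DESeq2 and 207 and 500 with limma-voom, and lower genes numbered 48 without a filter. Leaving out 1 library gave 47 to 102 higher and 17 to 111 lower genes. With the replicate number as a block, 36 were higher and 14 lower, and 0 of the 8 genes and 0 of the pathway genes were called lower. The numbers are not known to pair the libraries: same-numbered skin and spleen libraries deviated from their tissue means with correlations of -0.000311 to 0.0138. Of the 8 genes, 2 were called lower and 0 higher. Without a filter 1 was lower, DESeq2 and limma-voom each added 1 higher, and leaving out 1 library gave 0 to 2 lower and 0 to 1 higher. Of the pathway genes, 2 were called lower and 0 higher. Without a filter 1 was lower, DESeq2 called 1 higher, and leaving out 1 library gave 0 to 1 lower and 0 to 1 higher. The difference of P2rx7 in mean log2 CPM, -7.50 with a pseudocount of 1 CPM, was -8.49 with 0.5 CPM and -5.21 with 5 CPM. That of Art2b, -6.88, was -7.88 and -4.61 with those pseudocounts and -7.44 summed with Art2a-ps. These moved by construction, since skin stood at 0. Nt5e turned from -0.43 to 0.099 with a pseudocount of 5 CPM and ranged from -1.52 to 1.53 with 1 library left out. The cause of the other shifts was not tested. Skin libraries detect fewer genes than spleen libraries, and this limits what a skin zero shows.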

Other observations

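Of the pathway genes with too few counts to be tested, 11 had a count in exactly 1 skin library, of which 3 had none in spleen and 8 had some. P2ry2, a receptor for ATP and UTP, stood at 45 CPM in skin replicate 1 and at 0 in the other 7 libraries. Entpd2, which encodes an enzyme that turns ATP into ADP, stood at 79.7 CPM in skin replicate 2 and at 0 in the other 7. Enpp2, which encodes autotaxin, the enzyme that makes lysophosphatidic acid, stood at 105 CPM in skin replicate 3 and at 0 in the other 7. The highest of the other 8 was Enpp1, which encodes an enzyme that splits ATP into AMP and pyrophosphate and which stood at 123 CPM in skin replicate 4 and at 0 in the other skin libraries, against 0.195, 0, 0 and 21.1 CPM in spleen replicates 1 to 4. Skin replicates 1 to 4 held 2, 2, 4 and 3 of the 11 genes. The 4 genes named were picked after their values were seen. Of all 11429 genes with a count, 13.2% had it in 1 library alone.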
